A study of Mus musculus with 4 samples.

Results

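A set of 10 genes of arginine metabolism and nitric oxide synthesis were read from RNA sequencing of cells labelled as tumor-associated macrophages (TAMs). All 10 symbols matched a row among the 54532 genes of the deposited count table. They are the arginases *Arg1* and *Arg2*, the nitric oxide synthases *Nos1*, *Nos2* and *Nos3*, the cationic amino acid transporters *Slc7a1* and *Slc7a2*, the arginine resynthesis enzymes *Ass1* and *Asl*, and the polyamine entry enzyme *Odc1*. They were taken by name from these roles, by a rule that uses no measured value, although earlier results of these data were known when they were chosen. The TAMs came from tumors of NB9464, a murine neuroblastoma (NB) line derived from a tumor of *MYCN* transgenic mice. The cells were injected subcutaneously into mice on a C57BL/6 background that were 4 to 6 weeks old, tumors were collected on day 40 and the mice received no treatment. The libraries M7 and M8 are labelled SYK WT and the libraries M9 and M10 are labelled SYK KO. In the SYK KO strain, LysM-Cre, active in myeloid cells such as macrophages and neutrophils, deletes floxed *Syk*, the gene of spleen tyrosine kinase. SYK WT mice were the wild type control of that cross, and their *Syk* and Cre alleles are not given in the sources used here. Cells were enriched with magnetic beads against CD11b and F4/80, so other cells of the tumor can remain. The labels name TAMs as the source and then BMDMs (bone marrow derived macrophages) as the origin of the RNA, and the series title names an adoptive transfer experiment. They do not state whether the 2 libraries of a genotype came from separate mice, so p-values measure the spread between libraries, which may be technical.

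Arginine is the shared substrate of competing enzymes. Arginases split it into urea and ornithine, and ornithine decarboxylase (ODC1) turns ornithine into putrescine, the first polyamine. Nitric oxide synthases turn it into nitric oxide and citrulline, and argininosuccinate synthase (ASS1) and argininosuccinate lyase (ASL) rebuild arginine from citrulline. In mouse macrophages *Arg1* is classically induced by interleukin 4 and *Nos2* by interferon gamma with microbial products, and both are expressed by myeloid cells of tumors.

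Total counts ran from 20755886 to 23518045 per library. *Syk*, the deleted gene, was 27.9 and 23.2 CPM (counts scaled to the same library total, after normalization of the totals by edgeR's TMM method) in M7 and M8 and 196 and 160 CPM in M9 and M10. With TMM scaling *Syk* was thus higher where the label says SYK KO (log2 fold change 2.80, edgeR adjusted p = 0.000674), which, taken alone, goes against the labels. These are counts of the whole gene, and its floxed part was not read apart. The median log2 fold change was larger still for 10 macrophage markers (3.01) and 6 pan-leukocyte genes (3.47). Whether *Syk* was higher relative to leukocyte transcripts is not reported here. *Lyz2*, the gene that the LysM-Cre insertion disrupts, was lower in the libraries labelled SYK KO, at 296, 208, 8.64 and 20.2 CPM in M7 to M10 (log2 fold change -4.13, edgeR adjusted p = 0.00156). That is the direction the labels give only if the SYK WT mice lack the insertion, which is not stated. *Syk* and *Lyz2* thus moved opposite ways with TMM scaling, and every direction below is for the libraries as labelled. *Lyz2* is also a gene of macrophages and neutrophils, and it moved against the 10 macrophage markers, which, like *Syk*, were all higher in the libraries labelled SYK KO, and their summed level was 776 to 1122 CPM in M7 and M8 against 5799 to 9212 CPM in M9 and M10. All 6 pan-leukocyte genes (summed level 299 to 386 against 2984 to 4127 CPM), 6 of 7 neutrophil markers (29.5 to 42.7 against 232 to 464 CPM), 4 of 6 T cell markers (4.68 to 6.12 against 11.5 to 14.7 CPM) and 4 of 6 dendritic cell markers (12.2 to 13.9 against 60.8 to 67.4 CPM) were also higher. Fibroblast markers were lower (5 of 8, summed level 12549 to 14444 against 4060 to 4959 CPM), as were 3 of 8 endothelial markers (215 to 221 against 153 to 179 CPM) and 5 of 5 erythroid markers (2546 to 7077 against 221 to 367 CPM). Of 8 neuroblastoma markers 3 were tested and 2 were higher (summed level 284 to 323 against 209 to 332 CPM), and *Th* and *Dbh* were at 0 in every library. The pan-leukocyte genes were detected in every library, and the neutrophil marker *Ly6g* had 0 to 5 counts. Mitochondrial genes took 2.20% and 2.34% of the counts in M7 and M8 and 6.00% and 15.9% in M9 and M10. The part of this difference in cell content and mitochondrial share in the results below was not tested. The calls of the 10 genes are therefore also given with libraries scaled to the 10 macrophage markers or to the 6 pan-leukocyte genes, which asks for a change relative to leukocyte transcripts instead of relative to all transcripts. In bulk samples, fewer cells of a type and less RNA per cell cannot be told apart.

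Of the 10 genes, 6 rose in M9 and M10, labelled SYK KO, against M7 and M8. The test was the quasi-likelihood test of edgeR, with p-values adjusted by Benjamini-Hochberg over 16451 genes and called under 0.05. These were *Arg1*, *Arg2*, *Nos2*, *Slc7a2*, *Ass1* and *Odc1*. Over all genes tested, 22.7% were higher and 16.7% were lower, or 39.4% in either direction. DESeq2 called 6 of the 10 genes higher, where it called 18.9% of all genes higher and 15.3% lower (34.2% in either direction). None of the 10 genes was lower by edgeR, at an adjusted or an unadjusted p under 0.05, nor by DESeq2 with adjustment, although 1 was lower by DESeq2 at an unadjusted p under 0.05. The median log2 fold change of the 10 genes was 0.95, against 0.02 over all genes tested. For all 10 genes the libraries labelled SYK KO lay outside the range of the libraries labelled SYK WT, 8 above it and 2 below it, as did 75.2% of all genes tested (38.0% above and 37.2% below). Scaled to the macrophage markers, 0 of the 10 genes were higher (1 at an unadjusted p under 0.05) and 6 were lower, where 0.76% of all genes were higher and 87.3% were lower (88.0% in either direction). Scaled to the pan-leukocyte genes, 0 were higher (1 at an unadjusted p under 0.05) and 6 were lower, where 0.565% of all genes were higher and 90.4% were lower (91.0% in either direction). None of the 6 calls of a rise held relative to leukocyte transcripts, and with the library total alone as the scale 5 of the 10 genes were higher, without *Odc1*.

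**Figure D1:**
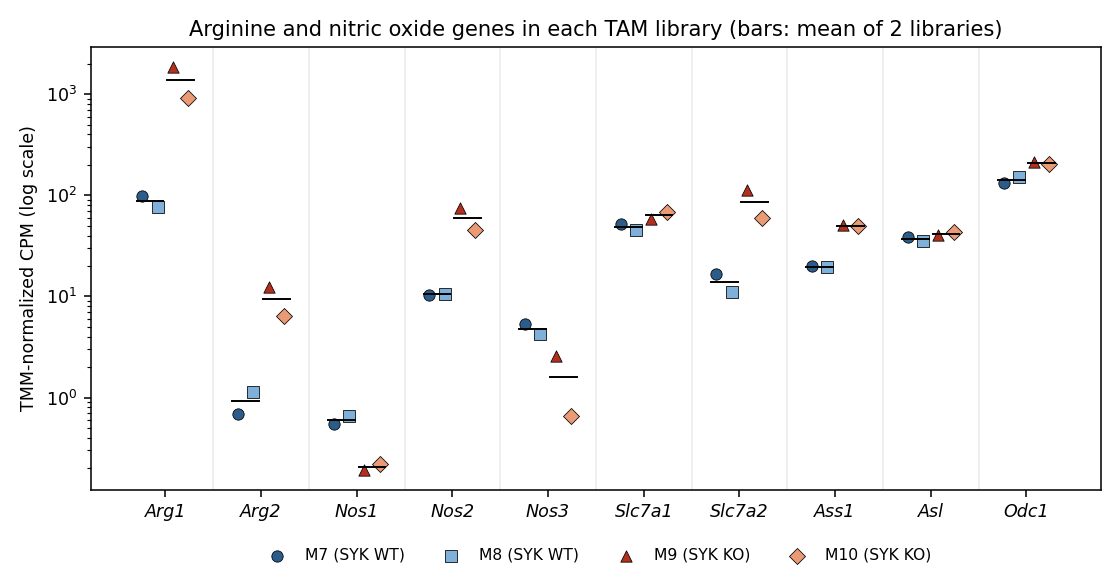
TMM-normalized CPM (log scale) of the 10 genes in each of the 4 libraries, with short bars for the mean of the 2 libraries of each genotype label. M9 and M10 lie above M7 and M8 for 8 genes and below them for *Nos1* and *Nos3* with this scaling, whereas relative to leukocyte markers 8 of the 10 log2 fold changes are below 0. The widest gap is that of *Arg1*, from 77.3 and 99.1 CPM to 926 and 1836 CPM.

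With TMM scaling, arginase transcripts showed the largest differences among the 10 genes. *Arg1* (ENSMUSG00000019987, minus strand of chr10:24915221-24927484 in GRCm38) encodes the cytosolic arginase of liver and of alternatively activated macrophages. Its level was 99.1 and 77.3 CPM in M7 and M8 and rose to 1836 and 926 CPM in M9 and M10. The libraries labelled SYK KO were both far above the others, and M9 was 1.98-fold above M10. The mean level of *Arg1* was 88.2 ± 15.5 CPM in M7 and M8 and 1381 ± 643 CPM in M9 and M10 (SD, n = 2 each), a 15.7-fold difference, with a log2 fold change of 3.97 (SE 0.390, edgeR adjusted p = 0.00132). Relative to the macrophage markers *Arg1* had a log2 fold change of 1.08 (adjusted p = 0.0515), and relative to the pan-leukocyte genes one of 0.72 (adjusted p = 0.0533). *Arg1* thus kept its sign under both scalings but did not pass the threshold. With TMM and without M9, the library with the most *Arg1*, the log2 fold change was 3.31.

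*Arg2* (ENSMUSG00000021125, plus strand of chr12:79130777-79156301) encodes the mitochondrial arginase. It had 19 and 28 counts in M7 and M8 and 256 and 117 counts in M9 and M10, or 0.693, 1.14, 12.4 and 6.38 CPM in that order. Both libraries labelled SYK KO were above both others, by 10.3-fold on average, with a log2 fold change of 3.36 (SE 0.510, edgeR adjusted p = 0.00448) that was 2.71 without M9. Its log2 fold change was 0.39 relative to the macrophage markers (adjusted p = 0.658) and 0.07 relative to the pan-leukocyte genes (adjusted p = 0.923). The exons of *Arg2* share 285 bases with those of *Vti1b* on the opposite strand, a gene with 582, 495, 1386 and 1169 counts in M7 to M10. Whether the authors counted by strand is not given in the sources used here, so some *Arg2* counts may be reads of *Vti1b*.

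*Arg1* supplied nearly all arginase reads in every library. Its share of *Arg1* and *Arg2* reads was 99.3% in M7 (95% Wilson interval 98.9 to 99.6%), 98.5% in M8 (97.9 to 99.0%), then 99.3% in M9 (99.2 to 99.4%) and 99.3% in M10 (99.2 to 99.4%). The share did not separate the genotype labels, since the interval of M7 held the values of M9 and M10. These intervals, like every interval and floor here, cover counting error only, because PCR copies of a molecule were not marked by identifiers.

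Among the nitric oxide synthases, the inducible form was higher and the other forms had lower values in the libraries labelled SYK KO with TMM scaling, while all 3 had negative log2 fold changes under both marker scalings. *Nos2* (ENSMUSG00000020826, plus strand of chr11:78920787-78960254) encodes the inducible enzyme of activated macrophages. Its level was 10.4 and 10.7 CPM in M7 and M8, and 74.3 and 45.1 CPM in M9 and M10. M7 and M8 differed little, whereas M9 was 1.65-fold above M10. The means were 10.5 ± 0.192 and 59.7 ± 20.7 CPM (SD, n = 2 each), a 5.67-fold difference, with a log2 fold change of 2.50 (SE 0.269, edgeR adjusted p = 0.00162). Scaled to the macrophage markers, the sign of *Nos2* turned (log2 fold change -0.39, adjusted p = 0.479), as it did with the pan-leukocyte genes (-0.74, adjusted p = 0.0595).

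*Nos3* (ENSMUSG00000028978, plus strand of chr5:24364810-24384474), the endothelial enzyme, had 145 and 104 counts in M7 and M8 and 53 and 12 in M9 and M10. Its level was 5.29, 4.23, 2.57 and 0.654 CPM in that order, so M10 held much less than M9. The log2 fold change of -1.55 did not pass the threshold (SE 0.657, edgeR adjusted p = 0.106). It ran from -2.94 without M9 (adjusted p = 5.99e-05) to -0.87 without M10 (adjusted p = 0.0564), so the library M10 decided its size. Without the filter on low counts *Nos3* passed the threshold (log2 fold change -1.56, adjusted p = 0.0147), and it also passed relative to the macrophage markers (-4.51, adjusted p = 8.78e-08). The endothelial markers moved beside it, with 3 of 8 lower and a median log2 fold change of -0.75. *Atg9b*, which shares 294 exon bases with *Nos3* on the opposite strand, had 26, 39, 23 and 7 counts in M7 to M10.

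*Nos1* (ENSMUSG00000029361, plus strand of chr5:117781032-117958840), the neuronal enzyme, was close to the limit of detection. It had 15, 16, 4 and 4 counts in M7 to M10, where 3 counts, the smallest signal taken as detectable, correspond to 0.109 to 0.163 CPM. The log2 fold change of *Nos1* was -1.52 and did not pass the threshold (SE 0.761, edgeR adjusted p = 0.157).

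The make-up of nitric oxide synthase reads differed between the labels, and this comparison within a library does not depend on how libraries are scaled. *Nos2* held 64.0% of *Nos1*, *Nos2* and *Nos3* reads in M7 (95% Wilson interval 59.5 to 68.4%) and 68.6% in M8 (63.8 to 73.0%). It held 96.4% in M9 (95.4 to 97.2%) and 98.1% in M10 (96.9 to 98.8%). The share of *Nos3* was 32.6% and 27.2% in M7 and M8 and 3.34% and 1.42% in M9 and M10. These shares can still depend on which cells a library holds. With TMM the median log2 fold change was 3.01 for macrophage markers and -0.75 for endothelial markers, and the part of cell content in the shares was not tested.

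Both arms of arginine use were compared directly by the ratio of *Arg1* to *Nos2* reads. There were 9.54 and 7.25 *Arg1* reads for each *Nos2* read in M7 and M8 and 24.7 and 20.6 in M9 and M10. On the log2 scale, with 0.5 added to each count, the ratio was higher by 1.44 in the libraries labelled SYK KO (means 3.05 ± 0.280 and 4.49 ± 0.188, SD, n = 2 each). The exact two-sided permutation test gave p = 0.333, the smallest value that 2 libraries against 2 can give. *Arg1* reads therefore outnumbered *Nos2* reads more in both libraries labelled SYK KO than in either library labelled SYK WT, and neither gene was called higher relative to leukocyte transcripts. Since *Arg1* and *Nos2* have exons of different summed length (2228 and 4412 bases), the ratio compares libraries and is not a ratio of molecules.

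**Figure D2:**
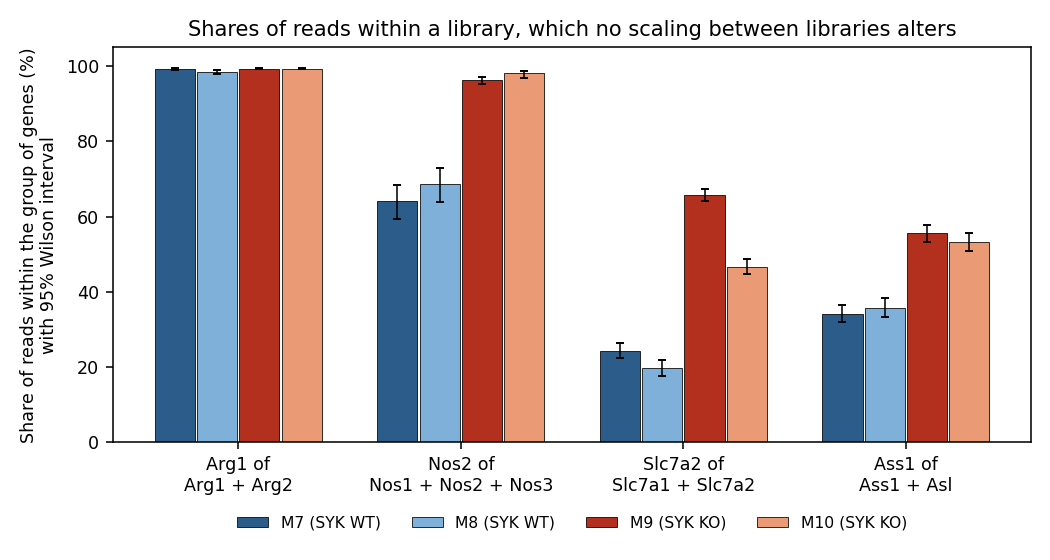
Share of reads, in percent of the reads of the named genes within a library, with 95% Wilson intervals, for each of the 4 libraries. *Arg1* takes over 98% of arginase reads in every library, whereas *Nos2*, *Slc7a2* and *Ass1* take larger shares of their groups in M9 and M10 than in M7 and M8.

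The arginine transporters differed from each other. *Slc7a2* (ENSMUSG00000031596, plus strand of chr8:40862396-40922308) encodes CAT2, the transporter that is induced with *Nos2* and *Arg1* in activated macrophages. It stood at 16.5 and 11.0 CPM in M7 and M8 and at 112 and 60.2 CPM in M9 and M10. Both libraries labelled SYK KO were above both others, by 6.27-fold on average, with a log2 fold change of 2.65 (SE 0.352, edgeR adjusted p = 0.00296) that was 2.04 without M9. It was -0.21 relative to the macrophage markers (adjusted p = 0.703) and -0.58 relative to the pan-leukocyte genes (adjusted p = 0.117), so the rise was not found relative to leukocyte transcripts. *Slc7a2* transcripts share at least 100 bases at 95% identity with 58 other genes. *Gm26584*, which overlaps *Slc7a2* exons on the opposite strand, had 0 to 4 counts in the libraries. *Zfp36*, which shares 104 bases, had 2658, 1676, 18272 and 12935 counts in M7 to M10. *Calu*, which shares 108 bases, had 19465, 17179, 8472 and 7771 counts in that order. *Rps18*, which shares 103 bases, had 19150, 14265, 21332 and 19070 counts, so these genes did not all move the same way. How reads of such stretches were divided is not given in the sources used here, so *Slc7a2* counts are uncertain to that extent. *Slc7a1* (ENSMUSG00000041313, minus strand of chr5:148327410-148399904) encodes CAT1, the transporter found in most cells. Its level of 51.4, 45.1, 58.4 and 68.9 CPM in M7 to M10 varied little, and the log2 fold change of 0.40 did not pass the threshold (SE 0.168, edgeR adjusted p = 0.104). Without M9 it passed (0.43, adjusted p = 0.0425), and with the library total alone as the scale its sign turned (-0.14, adjusted p = 0.537). *Slc7a2* made up 24.3% and 19.7% of the reads of both transporters in M7 and M8 (95% Wilson intervals 22.4 to 26.3% and 17.6 to 21.8%) and 65.8% and 46.6% in M9 and M10 (64.2 to 67.4% and 44.6 to 48.6%).

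The arginine resynthesis enzymes also parted. *Ass1* (ENSMUSG00000076441, plus strand of chr2:31470207-31520672) encodes the enzyme that joins citrulline to aspartate. Its 19.9 and 19.5 CPM in M7 and M8 became 50.8 and 49.1 CPM in M9 and M10, and its SE was the smallest of the 6 genes called. The log2 fold change was 1.34 (SE 0.156, edgeR adjusted p = 0.00204), a 2.53-fold difference of the means. Relative to the macrophage markers *Ass1* was lower (-1.48, adjusted p = 0.00597), as it was relative to the pan-leukocyte genes (-1.85, adjusted p = 0.000135). *Asl* (ENSMUSG00000025533, minus strand of chr5:130011258-130029247), whose enzyme releases arginine, was 38.4, 35.1, 40.6 and 43.2 CPM in M7 to M10. Its log2 fold change of 0.19 did not pass the threshold (SE 0.156, edgeR adjusted p = 0.374). *Ass1* reads were 34.1% and 35.8% of *Ass1* and *Asl* reads in M7 and M8 (95% Wilson intervals 31.8 to 36.5% and 33.2 to 38.4%). They were 55.6% and 53.2% in M9 and M10 (53.3 to 57.8% and 50.9 to 55.6%), so the order of the pair by reads turned between the labels. The copy *Gm5424*, with 1240 shared bases at 99.5% identity to *Ass1*, had 0 counts in every library.

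*Odc1* (ENSMUSG00000011179, plus strand of chr12:17544794-17551505) encodes the rate-limiting enzyme of polyamine synthesis and is a known target of MYC proteins. It was high in every library, at 133, 150, 214 and 206 CPM in M7 to M10. Its log2 fold change of 0.57 was the smallest of the 6 calls (SE 0.160, edgeR adjusted p = 0.0325). The call was lost without M7 (0.48, adjusted p = 0.323), without M8 (0.65, adjusted p = 0.206), with the library total alone as the scale (0.04, adjusted p = 0.885) and without mitochondrial and rRNA-like genes (0.48, adjusted p = 0.0527). Relative to the macrophage markers *Odc1* was lower (-2.27, adjusted p = 7.56e-05). Of 13 other genes sharing at least 100 bases at 95% identity with *Odc1* transcripts, *AW146154* held the most counts, with 206, 194, 56 and 47 counts in M7 to M10.

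RefSeq promoter windows on GRCm38.p6, from 250 bases before to 50 after a transcript start, were matched for 4 of the 10 genes (*Ass1*, *Nos1*, *Slc7a1* and *Odc1*) and not for *Arg1*, *Arg2*, *Nos2*, *Nos3*, *Slc7a2* or *Asl*. The windows of *Ass1* (chr2:31470020-31470319, plus strand) and *Odc1* (chr12:17544623-17544922, plus strand), called higher with TMM, are shown beside that of *Slc7a1* (chr5:148399855-148400154, minus strand), which was not called. *Slc7a1* has a further window (chr5:148392766-148393065) that is not printed. This split is that of the TMM calls only. With the library total alone as the scale *Odc1* was not called, and under both marker scalings all 3 genes were lower. Capitals mark the E-box CACGTG and the GC box GGGCGG, searched on both strands.
Ass1: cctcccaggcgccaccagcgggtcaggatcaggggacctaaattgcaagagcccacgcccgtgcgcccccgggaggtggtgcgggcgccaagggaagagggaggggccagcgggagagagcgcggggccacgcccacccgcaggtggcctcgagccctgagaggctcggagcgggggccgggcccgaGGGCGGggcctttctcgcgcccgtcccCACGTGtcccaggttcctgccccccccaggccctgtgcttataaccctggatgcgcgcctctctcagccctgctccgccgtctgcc
Odc1: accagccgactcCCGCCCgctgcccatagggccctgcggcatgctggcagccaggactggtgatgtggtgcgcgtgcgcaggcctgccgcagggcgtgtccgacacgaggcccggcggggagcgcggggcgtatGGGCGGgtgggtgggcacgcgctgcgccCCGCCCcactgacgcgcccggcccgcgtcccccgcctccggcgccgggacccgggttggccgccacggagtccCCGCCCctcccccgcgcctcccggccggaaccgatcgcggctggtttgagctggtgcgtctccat
Slc7a1: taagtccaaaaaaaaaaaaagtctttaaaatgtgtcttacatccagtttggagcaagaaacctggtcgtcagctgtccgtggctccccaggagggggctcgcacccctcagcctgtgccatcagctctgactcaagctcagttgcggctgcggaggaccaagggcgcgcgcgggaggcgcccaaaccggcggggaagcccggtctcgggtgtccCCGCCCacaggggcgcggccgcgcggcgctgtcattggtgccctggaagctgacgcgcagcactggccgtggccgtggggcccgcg
All 3 windows are rich in G and C (74.0%, 78.0% and 65.0%). *Ass1* holds 1 E-box, which starts 36 bases before the transcript start, and *Odc1* and *Slc7a1* hold none. An E-box is found in 7.15% of the 32851 windows of all genes. A GC box is found in 35.7% of them, and *Ass1* holds 1, *Odc1* holds 4 and the printed window of *Slc7a1* holds 1. The further *Slc7a1* window holds no GC box or E-box, has 51.7% G and C, and holds the TATA box TATAAA from 28 bases before its start, a motif found in 13.6% of all windows. These matches describe letters in the windows shown and no binding was measured.

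**Figure D3:**
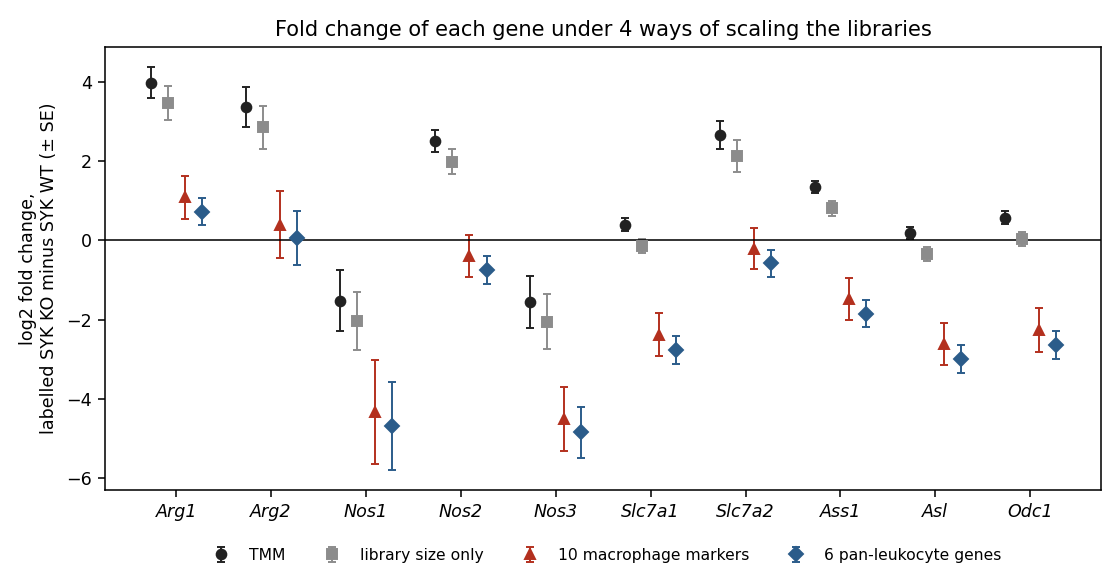
Log2 fold change of each gene (libraries labelled SYK KO minus SYK WT, ± SE derived from the edgeR F statistic) with libraries scaled by TMM, by their total alone, by 10 macrophage markers or by 6 pan-leukocyte genes. A scaling moves all 10 genes together: *Arg1* and *Arg2* stay above 0 under each, *Arg2* at only 0.07 with the pan-leukocyte genes. In contrast, *Nos2*, *Slc7a2*, *Ass1* and *Odc1* lie above 0 with TMM and below 0 with either set of markers.

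The 10 genes also differed in how far apart the libraries of the same label lay, a comparison that does not use the contrast between labels. *Arg1*, *Arg2*, *Nos2* and *Slc7a2* were higher in M9 than in M10 by 1.98-, 1.95-, 1.65- and 1.87-fold. The median macrophage marker was 1.57-fold higher in M9 and the median neutrophil marker 1.66-fold. Pan-leukocyte genes had a median ratio of M9 to M10 of 1.31, dendritic cell markers 1.08 and T cell markers 0.828. For the 15744 tested genes with counts in every library the median ratio was 0.998. *Ass1*, *Asl*, *Odc1* and *Slc7a1* differed little between M9 and M10, with ratios of 1.03, 0.940, 1.04 and 0.847. *Nos3* was 3.94-fold higher in M9, whereas the median endothelial marker was 1.20-fold higher. Between M7 and M8 the median macrophage marker was 1.49-fold higher in M7, whereas the median neutrophil marker had a ratio of 0.684. Pan-leukocyte genes, dendritic cell markers and T cell markers had median ratios of M7 to M8 of 1.32, 1.29 and 1.49. There *Arg1* and *Slc7a2* were 1.28- and 1.49-fold higher in M7, *Nos2* was level with a ratio of 0.975, and *Arg2*, at 19 and 28 counts, had a ratio of 0.608. Each of these is a ratio of 2 libraries and has no replicate check.

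**Figure D4:**
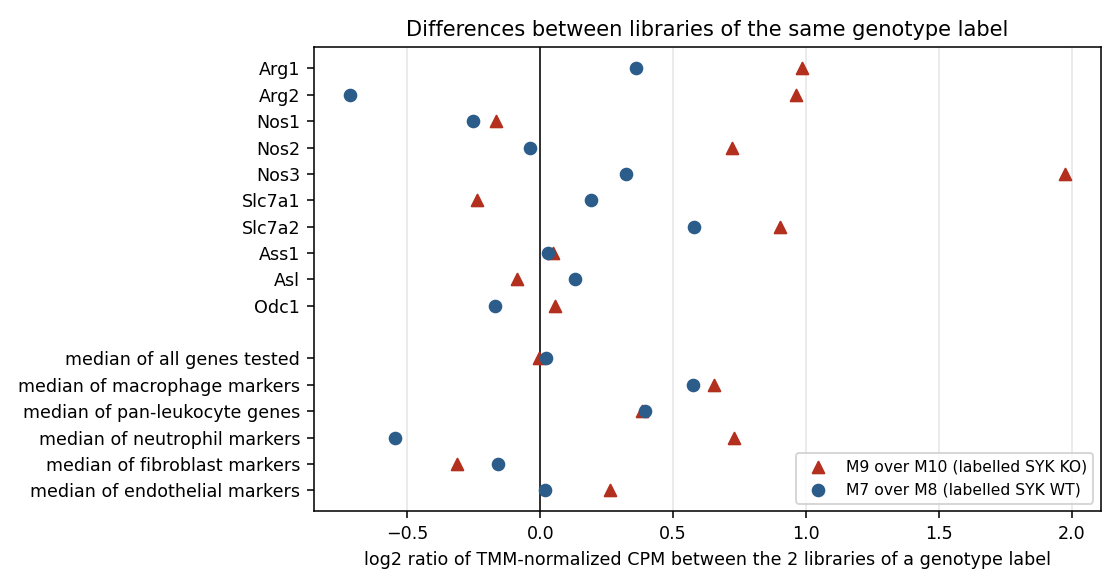
Log2 ratio of TMM-normalized CPM between the 2 libraries of each genotype label, for the 10 genes and for the medians of the tested genes with counts in every library and of 5 marker lists. *Arg1*, *Arg2*, *Nos2* and *Slc7a2* lie at 0.987, 0.963, 0.721 and 0.902 for M9 over M10. The medians there are 0.654 for macrophage markers, 0.728 for neutrophil markers and 0.385 for pan-leukocyte genes. *Ass1*, *Asl*, *Odc1* and *Slc7a1* lie near 0.

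Levels of different genes were compared as CPM per kilobase of the summed exons of a gene, which understates genes with long alternative exons. In the libraries labelled SYK WT, *Odc1* (39.2 to 44.1 CPM per kilobase) and *Arg1* (34.7 to 44.5) were highest and overlapped. They were followed by *Ass1* (8.09 to 8.25), *Asl* (7.26 to 7.95), *Slc7a1* (3.91 to 4.46), *Nos2* (2.35 to 2.42), *Slc7a2* (1.21 to 1.80), *Nos3* (1.02 to 1.28), *Arg2* (0.485 to 0.798) and *Nos1* (0.0490 to 0.0584), and apart from *Slc7a2* and *Nos3* these neighbors did not overlap. In the libraries labelled SYK KO, *Arg1* (416 to 824 CPM per kilobase) stood far above *Odc1* (60.5 to 63.0) and *Ass1* (20.36 to 21.04). *Nos2* (10.2 to 16.8), *Slc7a2* (6.59 to 12.3), *Asl* (8.40 to 8.93), *Arg2* (4.46 to 8.70) and *Slc7a1* (5.07 to 5.98) came next, and each neighboring pair of these 5 overlapped. *Nos3* (0.158 to 0.623) and *Nos1* (0.0174 to 0.0195) were lowest. *Arg1* and *Odc1* were thus level in the libraries labelled SYK WT, and *Arg1* led in the libraries labelled SYK KO.

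Other genes of these pathways were read from a list of 48, of which 46 were tested. With TMM scaling 17 were higher and 4 lower in the libraries labelled SYK KO (22.7% and 16.7% over all genes), with a median log2 fold change of 0.38, whereas relative to the macrophage markers 1 was higher and 39 were lower (0.76% and 87.3% over all genes). Relative to the pan-leukocyte genes 0 were higher by edgeR, with 1 at an unadjusted p under 0.05, and 43 were lower (0.565% and 90.4% over all genes). The directions given next for single groups are with TMM, and under both marker scalings the median of every group was below 0. The median of all genes tested was also below 0, at -2.79 with the macrophage markers and -3.17 with the pan-leukocyte genes. The gene higher relative to the macrophage markers was *Padi4*, which encodes a peptidylarginine deiminase, an enzyme of neutrophils and other myeloid cells that turns arginine within proteins into citrulline.

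**Figure D5:**
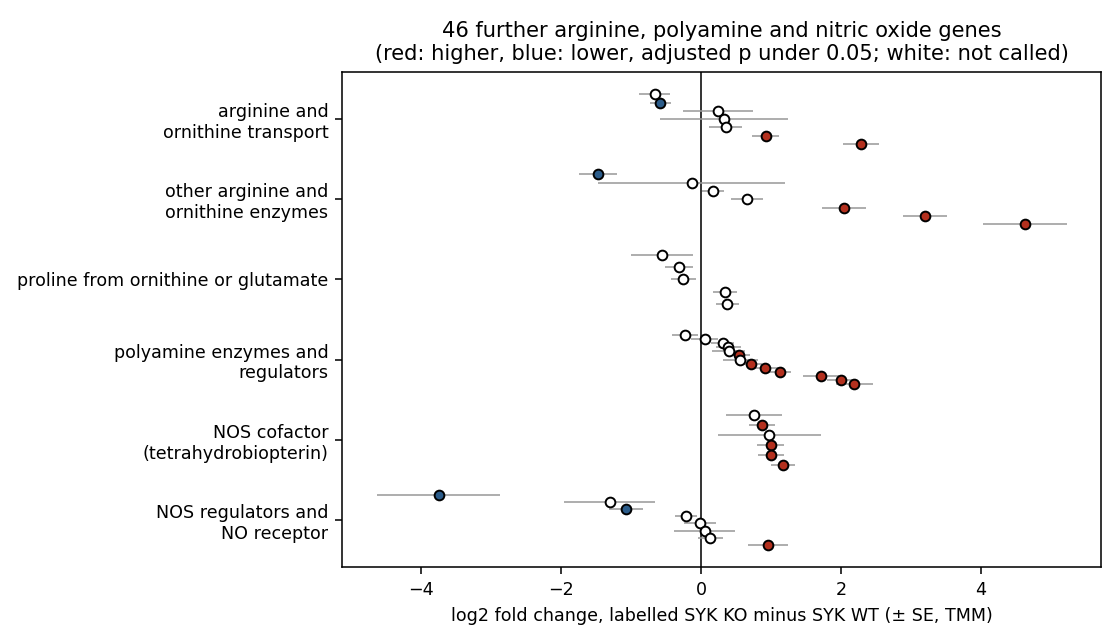
Log2 fold change (libraries labelled SYK KO minus SYK WT, TMM, ± SE) of 46 further genes in 6 groups, with red for genes called higher, blue for genes called lower and white for genes not called. The polyamine, proline and NOS cofactor groups hold no gene called lower with TMM (16.7% over all genes), and the proline group none called higher. *Azin2*, an antizyme inhibitor called lower, is placed in the group of other arginine and ornithine enzymes. Under the macrophage marker scaling the medians of the polyamine and NOS cofactor groups turn to -2.25 and -1.79, where the median of all genes tested is -2.79.

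Of the 13 polyamine genes as grouped here, 7 were called higher with TMM and 0 lower (22.7% and 16.7% over all genes). At an unadjusted p under 0.05 and by DESeq2 0 were lower as well. Relative to the macrophage markers 11 were lower, as were 87.3% of all genes. *Smox*, which encodes spermine oxidase, was 23.9, 23.4, 135 and 80.7 CPM in M7 to M10 (log2 fold change 2.19, SE 0.265, edgeR adjusted p = 0.00219). *Paox*, which encodes the oxidase of acetylated polyamines, had 192, 164, 586 and 485 counts (log2 fold change 2.004, SE 0.203, edgeR adjusted p = 0.00141). *Sat1*, *Atp13a2*, *Eif5a*, *Dohh* and *Amd1* were the other genes called, with log2 fold changes of 1.71, 1.13, 0.92, 0.71 and 0.54. Of these 7 genes *Smox*, *Paox* and *Sat1* serve polyamine breakdown and *Atp13a2* exports polyamines from lysosomes. *Eif5a* and *Dohh* belong to the modification of a translation factor that uses spermidine, and *Amd1* serves synthesis. The spermidine and spermine synthases *Srm* and *Sms* had log2 fold changes of 0.39 and 0.31 that did not pass the threshold (edgeR adjusted p = 0.130 and 0.172). The antizymes *Oaz1* and *Oaz2* and the antizyme inhibitor *Azin1*, which control ODC1 protein, did not pass the threshold either, with log2 fold changes of 0.56, -0.23 and 0.05. A further antizyme inhibitor, *Azin2*, is grouped here with the arginine and ornithine enzymes and was called lower (log2 fold change -1.47, edgeR adjusted p = 0.00826).

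Of the 6 genes for tetrahydrobiopterin, the cofactor that every nitric oxide synthase needs, 4 were higher and 0 lower with TMM (22.7% and 16.7% over all genes). At an unadjusted p under 0.05 and by DESeq2 0 were lower as well. Relative to the macrophage markers 5 were lower, as were 87.3% of all genes. *Qdpr*, which regenerates the cofactor, was 45.9, 37.6, 91.3 and 96.9 CPM in M7 to M10 (log2 fold change 1.17, SE 0.168, edgeR adjusted p = 0.00376). *Spr*, for the last step of its synthesis, was 26.2, 20.6, 44.8 and 48.9 CPM (log2 fold change 1.001, SE 0.186, edgeR adjusted p = 0.00852). *Gch1*, for the first and rate-limiting step, was also called, with a log2 fold change of 0.87. The call of *Spr* was lost without M8 (0.83, adjusted p = 0.105) and with the library total alone as the scale (0.46, adjusted p = 0.110).

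Among 7 further transporters, 2 were higher and 1 lower with TMM (22.7% and 16.7% over all genes). Relative to the macrophage markers 6 were lower, as were 87.3% of all genes. *Slc7a7*, the light chain of an arginine exporter of macrophages, was 9.84, 7.77, 51.1 and 34.6 CPM in M7 to M10 (log2 fold change 2.28, SE 0.257, edgeR adjusted p = 0.00185). Its heavy chain partner *Slc3a2* was 158, 153, 333 and 257 CPM (log2 fold change 0.92, SE 0.190, edgeR adjusted p = 0.0118), a call lost without M7 (adjusted p = 0.0758) or M8 (adjusted p = 0.113) and with the library total alone as the scale (0.40, adjusted p = 0.203). *Slc7a6*, another light chain with the same partner, was lower (log2 fold change -0.58, edgeR adjusted p = 0.0239), with 58.8, 55.6, 38.5 and 37.9 CPM.

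Of 9 other arginine and ornithine enzymes, 7 were tested, of which 3 were higher and 1 lower with TMM (22.7% and 16.7% over all genes). Relative to the macrophage markers 1 was higher and 4 were lower (0.76% and 87.3% over all genes). *Padi4* had 27, 8, 449 and 205 counts in M7 to M10 (log2 fold change 4.63, SE 0.6003, edgeR adjusted p = 0.00277), and relative to the macrophage markers it was higher by 1.85 (adjusted p = 0.0278), a call that relative to the pan-leukocyte genes was not made (1.45, adjusted p = 0.0515). With TMM its log2 fold change was 5.64 without M7 and 3.98 without M9. *Gatm*, which starts creatine synthesis from arginine, was 9.37, 5.41, 78.2 and 58.0 CPM (log2 fold change 3.20, SE 0.310, edgeR adjusted p = 0.00127), with 0.41 relative to the macrophage markers (adjusted p = 0.462). *Padi2* was also called higher (2.04) and *Azin2*, an antizyme inhibitor, lower (-1.47). The urea cycle genes of liver *Otc* and *Cps1* had 0 counts in every library and 9, 0, 0 and 0 counts, and were not tested. *Oat*, which turns ornithine toward proline, was 123, 115, 140 and 128 CPM and did not pass the threshold (edgeR adjusted p = 0.416).

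None of the 5 genes that make or break down proline was called in either direction by edgeR with TMM (39.4% over all genes), nor at an unadjusted p under 0.05, nor by DESeq2. Relative to the macrophage markers all 5 were lower, as were 87.3% of all genes. *Pycr3*, listed as *Pycrl* in the annotation, encodes an enzyme of the last step of proline synthesis and was 28.6, 24.4, 33.7 and 33.6 CPM in M7 to M10 (log2 fold change 0.34, SE 0.170, edgeR adjusted p = 0.151).

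Of 8 regulators of nitric oxide synthase and subunits of its receptor, 1 was higher and 2 lower with TMM (22.7% and 16.7% over all genes). All 8 were lower relative to the macrophage markers, as were 87.3% of all genes. *Gucy1a1*, a subunit of the guanylate cyclase that senses nitric oxide, had 116, 92, 1 and 10 counts in M7 to M10 (log2 fold change -3.76, SE 0.886, edgeR adjusted p = 0.0185). Its size rested on M9 and M10, from -6.20 without M10 to -2.95 without M9, and the call was lost without M7 (adjusted p = 0.0758) or M8 (adjusted p = 0.0710). The partner subunit *Gucy1b1* had 157, 130, 18 and 66 counts (log2 fold change -1.31, edgeR adjusted p = 0.154). *Ddah1*, which breaks down methylarginines that inhibit nitric oxide synthases, was 20.8, 18.1, 8.01 and 10.5 CPM (log2 fold change -1.08, SE 0.241, edgeR adjusted p = 0.0156). The call of *Ddah1* was also lost without M7 (adjusted p = 0.124) or M8 (adjusted p = 0.0725). *Nostrin* was called higher (log2 fold change 0.96, edgeR adjusted p = 0.0406), and DESeq2 called none of these 8 genes higher.

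The genes whose levels ran most like those of *Arg1* and *Nos2* over the 4 libraries were found by the Euclidean distance between log2 CPM values centered on their mean, among 10031 genes tested with a mean of at least 10 CPM. Nearest to *Arg1* were *Bcl2a1b* (distance 0.162), *Ccl6* (0.245) and *Slc11a1* (0.256). *Ccl6* was 71.9, 69.1, 1388 and 786 CPM in M7 to M10, and *Bcl2a1b* belongs to a family of near-identical genes among which reads can be divided. Nearest to *Nos2* were *Il4ra* (distance 0.101), *Lilr4b* (0.102) and *Milr1* (0.109). *Il4ra*, which encodes the receptor chain for interleukin 4, was 56.3, 54.4, 378 and 221 CPM in M7 to M10. With 4 libraries many genes share a profile, so the distances are a description.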

How the data were processed

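RNA was measured by polyA-selected sequencing in 4 libraries of cells described as bead-enriched TAMs, although the labels also name BMDMs. The labels describe the reads as paired. The submitters' processing notes name mm10, STAR 2.6.1d and Salmon 1.4.0, and the table that the authors deposited holds raw counts, whole numbers for each Ensembl gene. Which tool gave these counts, and whether strand was used, are not given in the sources used here. Symbols, positions and exon lengths came from GENCODE M21 on GRCm38, which matched 54495 of 54532 genes. The 10 genes, the pathway and marker lists and the alternatives were chosen with earlier results of these data known.

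Counts were analysed in R 4.3.3 with edgeR 4.0.16 (filterByExpr, TMM, glmQLFit and glmQLFTest, adjusted p under 0.05 over 16451 genes), and genes were named by a rule: all 10 genes, and in each pathway group the 2 with the lowest adjusted p. A gene that this rule chose is not reported here. Other genes named were chosen after their values were seen. CPM is relative to the TMM-normalized total. The SE of an edgeR log2 fold change is its absolute value divided by the square root of the F statistic, since the test gives no SE. TMM factors were 1.22, 1.19, 0.876 and 0.787 for M7 to M10. DESeq2 1.42.0 (Wald test without shrinkage), other scalings and filters, a fold limit and leaving out each library were alternatives. The fits were tested on simulated data. Counts of the libraries of a label differed by more than sampling noise (chi-square per degree of freedom 50.6 for SYK WT and 168 for SYK KO). For a single gene the smallest exact permutation p is 0.333, and adjusted p-values draw on the spread that edgeR shares between genes.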

Additional observations from a re-analysis of the deposited data

How the results depend on the processing

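With the library total alone as the scale, 1677 genes were called higher and 5411 lower, the pathway list had 9 higher and 9 lower, the median log2 fold change of the 10 genes was 0.42, and the log2 fold changes of *Slc7a1* (-0.14), *Asl* (-0.35) and *Pycr3* (-0.19) turned sign. With the macrophage marker scaling, 125 genes were higher and 14360 lower, 0 of the 10 genes were higher and 6 lower, 1 pathway gene was higher and 39 lower, and the median of the 10 genes was -1.87. The log2 fold changes that turned sign under it were those of *Nos2* (-0.39), *Slc7a1* (-2.37), *Slc7a2* (-0.21), *Ass1* (-1.48), *Asl* (-2.61), *Odc1* (-2.27), *Slc7a7* (-0.56), *Slc3a2* (-1.93), *Pycr3* (-2.45), *Smox* (-0.70), *Paox* (-0.82), *Spr* (-1.77) and *Qdpr* (-1.61). With the pan-leukocyte scaling, 93 genes were higher and 14873 lower, 0 of the 10 genes were higher and 6 lower, 0 pathway genes were higher and 43 lower, and the median of the 10 genes was -2.24. It turned the sign for *Nos2* (-0.74), *Slc7a1* (-2.76), *Slc7a2* (-0.58), *Ass1* (-1.85), *Asl* (-2.99), *Odc1* (-2.63), *Slc7a7* (-0.93), *Slc3a2* (-2.29), *Pycr3* (-2.83), *Smox* (-1.05), *Paox* (-1.19), *Spr* (-2.16) and *Qdpr* (-1.99). By construction a scaling shifts every gene of a library by the same factor, and the median of all genes tested was -2.79 and -3.17 under these scalings and -0.52 with the library total alone. Without the filter on low counts 1 of the 10 genes, *Nos3*, was lower, and with at least 10 counts in every library *Nos1* was not tested and the median of the other genes was 1.27. A further limit of 1 on the size of the log2 fold change left 2426 genes and 10 pathway genes called higher. Leaving out each library in turn gave 1478 to 5010 genes higher and 807 to 4745 lower, 5 to 7 of the 10 genes higher and 0 to 1 lower, 8 to 21 pathway genes higher and 1 to 9 lower, and a median of the 10 genes of 0.84 to 0.99. In these fits the label with 1 library was assumed to vary like the other. The log2 difference of the *Arg1* to *Nos2* ratio ran from 1.24 to 1.64 when a library was left out. The cause of these changes was not tested. No paired analysis was possible because the labels give the libraries no shared replicate numbers.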
